A study of Homo sapiens with 10 samples.

Results

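ChIRP-seq of the long non-coding RNA ANRIL in HEK293 cells placed 7 of the 8 autosomal peaks among the 10 highest scores of the series inside 7 genes, SLC35F3, LYST, EDEM3, CHRM2, DPP6, SUPT5H and NKAIN2. These genes were chosen by the deposited score of 1 peak in each of them. All peaks with their midpoint inside the hg19 interval of a gene were then taken, which gave 14 of the 3227 peaks in the deposited list: 3 each in SLC35F3 and NKAIN2, 2 each in LYST, CHRM2 and SUPT5H, and 1 each in EDEM3 and DPP6. Because scores picked the genes, scores, folds and peak counts are described here and no test was made on them.

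HEK293 is an established human embryonic kidney cell line. In ChIRP-seq, biotinylated oligos complementary to an RNA pull that RNA out of sonicated chromatin, and the DNA recovered with it is sequenced. The oligos targeted ANRIL in 4 samples, made of even and odd pools in 2 replicates, and in 4 samples of the same layout they targeted the bacterial LacZ gene as a negative control. Input made up the other 2 samples. The labels give paired-end reads of 43 bases at a depth of 45 M reads a sample, and do not say whether the replicates came from separate cultures. A single list of ANRIL peaks against LacZ, intersected over both replicates, was analysed. It gives 1 value per peak and none per sample, so no peak has a replicate error, an ANRIL read count or a LacZ level beside it.

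ANRIL is transcribed antisense to CDKN2B at band 9p21 and is best known for binding Polycomb proteins and for the repression of the neighbouring CDKN2A and CDKN2B genes. It has also been reported to affect genes on other chromosomes. Whether the 7 genes share a pathway was not tested. SLC35F3 encodes a solute carrier that has been linked to thiamine transport, CHRM2 the muscarinic M2 acetylcholine receptor, DPP6 an auxiliary subunit of Kv4 potassium channels and NKAIN2 a membrane protein that interacts with the sodium-potassium pump. LYST encodes a large regulator of lysosomal trafficking that is mutated in Chediak-Higashi syndrome, EDEM3 a mannosidase-like protein of endoplasmic reticulum-associated degradation, and SUPT5H the large subunit of the elongation factor DSIF.

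The deposited score is 10 times the −log10 q of a peak, and the deposited fold is ANRIL signal over what was expected locally. Both are the authors' values. The 10 highest scores of the list ran from 108 down to 78, and 8 of these 10 peaks were autosomal. The 7 genes held 7 of the 8. The eighth, on chromosome 16 from 3245882 to 3246405 (score 88, fold 6.55), lay in none of them. Just inside the edge were NKAIN2 and SUPT5H at 78. Just outside it were 2 peaks at 75. One lay at chr1:233497018-233498005, with a fold of 5.40, and the other at chr19:30185792-30189303, with a fold of 5.34. Of the 14 peaks of the genes, 7 reached a score of 78, against 0.310% of the whole list. The same 7 were at or above a fold of 5.56, which 0.434% of the list reached. Both shares were fixed by how the genes were chosen.

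**Figure D1:**
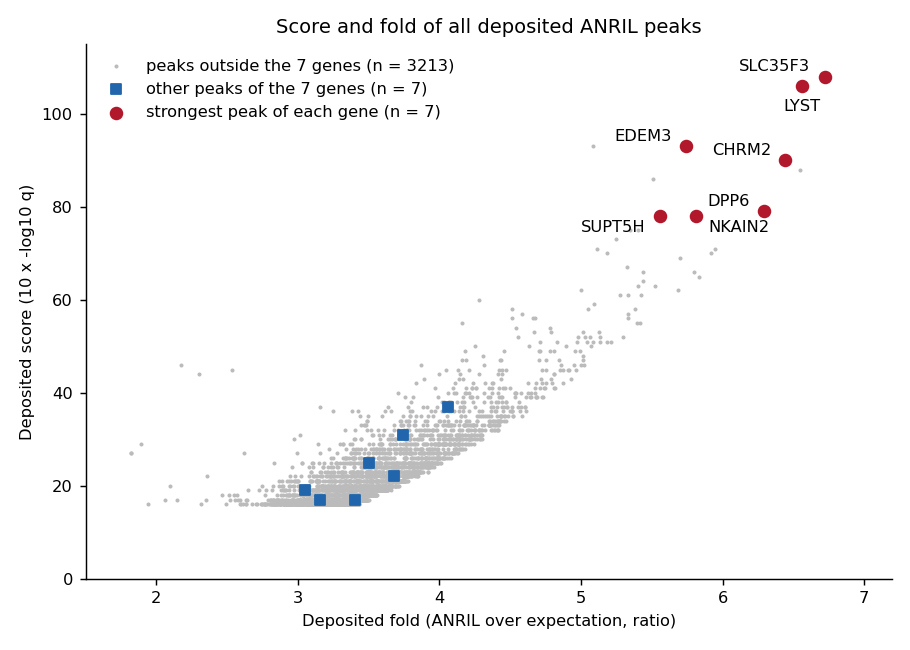
Deposited score (10 times −log10 q, vertical axis) against deposited fold (ratio, horizontal axis) for all peaks, 1 point per peak. The strongest peak of each gene (red circles, scores 78 to 108) lies in the upper right corner, and the 7 other peaks of the genes (blue squares, scores 17 to 37) lie inside the cloud of the remaining 3213 peaks (grey).

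The strongest peaks, whose scores picked the genes, had a median score of 90 and a median fold of 6.29. The other 7 peaks of the same genes had a median score of 22 (17 to 37) and a median fold of 3.50 (3.05 to 4.06), beside medians of 21 and 3.48 over the whole list. Of these 7, 4 were at or above the median score of the list, against 51.4% of all peaks. Only their medians lay near the middle of the list: by score they ranked from 211 (SUPT5H) to 2384, and by fold from 444 (SUPT5H) to 2940 (LYST), of 3227. In the 5 genes with more than 1 peak, the fold of the strongest was 1.37 to 2.15 times that of the second.

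Among the membrane proteins, SLC35F3 (chromosome 1, 234040679 to 234460262) held the top peak of the series. It lay at chr1:234163782-234164416, with a score of 108, a fold of 6.72 and a q of 1.57e-11. The second in the gene, at chr1:234358640-234359299, had a score of 31 and a fold of 3.74, and the remaining one, at chr1:234191771-234192314, had a score of 25 and a fold of 3.50. The strongest and the weakest of the 3 were neighbours, 27.9 kb apart, while the second lay 167 kb further on. All 3 were at least 101 kb from either end of the gene.

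CHRM2 (chromosome 7, 136553416 to 136705002) had the fifth highest score of the list and the fourth highest fold. Its strongest peak, at chr7:136657236-136657614, had a score of 90, a fold of 6.44 and a width of 379 bp. It lay 104 kb from the gene start, at 68.6% of the gene's length. The other peak, at chr7:136584902-136585398, had a score of 17 and a fold of 3.40, with a q of 0.0186. This was the lowest score among the 14 peaks, shared with 1 peak of NKAIN2.

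DPP6 (chromosome 7, 153584182 to 154685995) was the longest of the genes, at 1102 kb, and held a single peak. It lay at chr7:154540668-154541993, with a score of 79 and a fold of 6.29. At 1326 bp it was the widest of the 14, and 2.60% of all peaks were wider. It lay 957 kb from the gene start, at 86.9% of the gene's length. DPP6 had the lowest density of the genes, 0.908 peaks per Mb (exact Poisson 95% interval 0.0230 to 5.06, for counting error only). Its only peak is the one that picked the gene, so the count could not be lower. The interval makes no allowance for that.

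NKAIN2 (chromosome 6, 124124991 to 125146786) is nearly as long, at 1022 kb, and held 3 peaks spread over 797 kb. The strongest, at chr6:124936936-124937572, had a score of 78 and a fold of 5.81, and was the highest of the 448 peaks of chromosome 6 by score. By fold it was not, as the highest fold on that chromosome was 5.92. The other peaks of NKAIN2 had scores of 22 (fold 3.68, chr6:124655041-124655345) and 17 (fold 3.16, chr6:124140341-124140599). Scores went up with distance from the gene start, at 15.5, 530 and 812 kb, with only 3 peaks to show it.

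Of the genes of vesicle traffic and protein quality control, LYST (chromosome 1, 235824331 to 236030227) held the second highest score and the second highest fold of the list. This peak, at chr1:235866719-235867244, had a score of 106, a fold of 6.56 and a q of 2.18e-11. LYST is read from the higher coordinate down, so the peak lay 163 kb from the gene start, at 79.3% of its length. The other peak, at chr1:236017468-236017640, was 12.7 kb from the start and had a score of 19 and a fold of 3.05, the lowest fold of the 14. The fold ratio between the 2 peaks, 2.15, was the highest of the genes.

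EDEM3 (chromosome 1, 184659634 to 184724047) held a single peak, at chr1:184696537-184696833. Its score of 93 was the third highest of the list, tied with a peak on chromosome X, while its fold of 5.75 ranked eleventh. It was also the narrowest of the 7 strongest, at 297 bp, and the only one of them below the median width of 346 bp. The other 6 were wider than that median, against 49.8% of the list, but these peaks were chosen by score. Of the 7 weaker peaks of the genes, 3 were wider than the median. The peak lay 27.4 kb from the gene start, at 42.5% of its length.

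SUPT5H (chromosome 19, 39926796 to 39967310), the gene for the elongation factor subunit, was the shortest of the 7, at 40.5 kb, and held 2 peaks 24.2 kb apart. The strongest, at chr19:39952495-39952895, had a score of 78 and a fold of 5.56, and no peak of chromosome 19 scored higher. The other, at chr19:39928478-39928554, had a score of 37 and a fold of 4.06, the highest values among the 7 weaker peaks. It was only 77 bp wide, and 61 intervals of the list were as narrow or narrower. An interval left by an intersection can be narrower than the called peak whose score it carries.

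This weaker SUPT5H peak lay 1.72 kb from the gene start used here, and was the only one of the 14 within 10 kb of a start. Its place inside the gene depends on the gene model. It lay 38.8 kb before the gene's end, while the RefSeq gene, in another build, is 31.1 kb long. None of the strongest peaks was near a start: the closest was that of SUPT5H, 25.9 kb away, and the closest to either end of a gene was the same peak, 14.6 kb from the end. In hg19 no promoter, exon or intron was assigned to a peak, and no peak sequence was read. Distances run from the end of the hg19 interval used here. RefSeq gives more than 1 start for LYST, CHRM2, DPP6 and SUPT5H, and its gene is longer than the interval by 16786 bp for LYST and 44339 bp for DPP6, so other starts may lie nearer or further. For SLC35F3 no strand was at hand. Its strongest peak lay 123 kb from the lower end of the gene and 296 kb from the upper end.

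**Figure D2:**
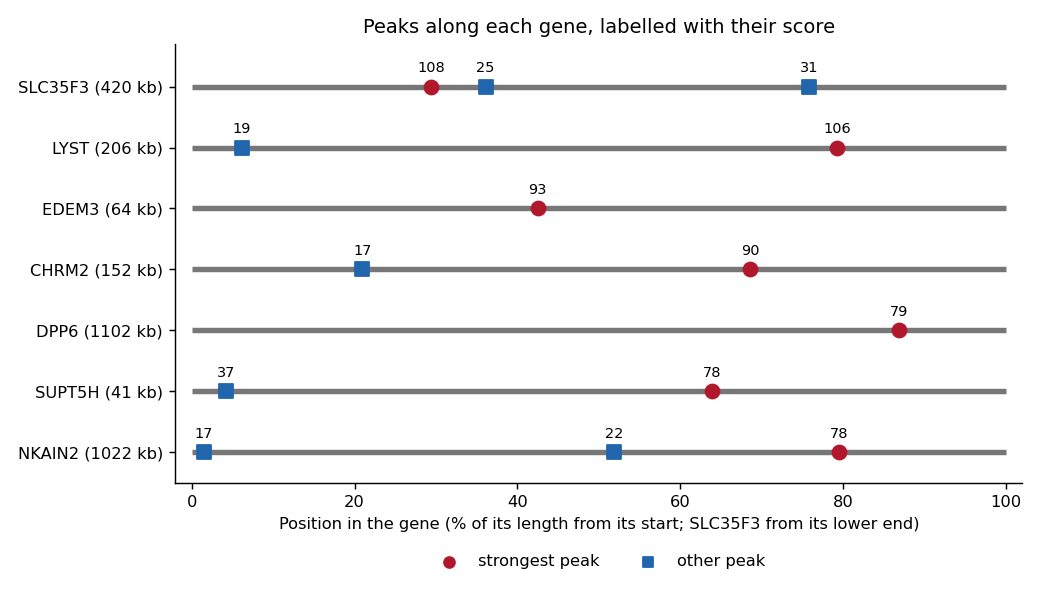
Position of each of the 14 peaks as a percentage of gene length (horizontal axis), 1 line per gene with its length in kb, numbers giving deposited scores. SLC35F3, whose strand was not at hand, is measured from its lower end. The strongest peaks (red circles) lie between 29.4% (SLC35F3) and 86.9% of the length. For LYST, SUPT5H and NKAIN2, 1 weaker peak each (blue squares) lies within the first 6.16%.

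The genes differed in how many other peaks surrounded them. Over all 7 the density was 4.66 peaks per Mb (14 peaks in 3.01 Mb, exact Poisson 95% interval 2.55 to 7.82). In the 1 Mb on each side it was 2.99 per Mb (40 peaks in 13.4 Mb, 2.14 to 4.08). The 2 intervals overlap, and a gene chosen for a peak holds at least 1 by construction. Without the strongest peak of each gene the density in the genes was 2.33 per Mb. For scores at or above the list median it was 3.66 per Mb in the genes and 1.497 around them. Of the 11 such peaks in the genes, only 4 were not the strongest of their gene. This difference therefore cannot be read apart from the choice of the genes.

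CHRM2, DPP6 and EDEM3 had the fewest peaks around them of the 7 genes. No peak outside CHRM2 lay within 1 Mb of the gene, and the nearest were 3871 kb below it and 2495 kb above it. DPP6 had 2 peaks within 1 Mb of the gene, both with a score of 16, the nearest 324 kb below it. Measured from its strongest peak, near the other end of this long gene, the nearest peak was 1281 kb away. EDEM3 had 2 peaks within 1 Mb of the gene, both below it, with scores up to 20. Chromosome 7 as a whole held 101 peaks, or 0.659 per Mb between its first and last, and chromosome 1 held 296, or 1.21 per Mb. In the 1 Mb on each side DPP6 had 1 peak per Mb, above the rate of chromosome 7, and CHRM2 had 0. EDEM3 had 1 per Mb, below the rate of chromosome 1.

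SUPT5H lay in the most crowded surroundings, with 17 peaks in the 1 Mb on each side, a median score of 18 and a highest score of 32. LYST had 10 such neighbours with scores up to 54, SLC35F3 had 7 with scores up to 75, and NKAIN2 had 6 with scores up to 56. NKAIN2's neighbours had the highest median score, 32.5. SUPT5H had 8.5 such neighbours per Mb, against 3.06 over chromosome 19 between its first and last peak. NKAIN2 had 3 per Mb, against 2.63 over chromosome 6. LYST had 5 and SLC35F3 had 3.5, against 1.21 over chromosome 1. The 1 Mb stretches between SLC35F3 and LYST overlap, so some peaks are neighbours of both genes. The 40 peaks around all the genes, given above, count each peak once. The score of 75 beside SLC35F3 belongs to the first peak below the 10 highest of the list, 667 kb from the strongest peak of the gene. In the 6 genes whose strongest peak had any peak within 1 Mb, no such peak reached its score.

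SLC35F3 and LYST, with the 2 highest scores of the series, are 2 loci of 1 region: their strongest peaks lay 1703 kb apart. The 7 peaks between them had scores of 18 to 31 and a median fold of 3.50, and the 2 highest-scoring peaks thus had only peaks of moderate score between them. The 2 weaker peaks of SLC35F3 are among these 7. The strongest peaks of CHRM2 and DPP6, both on chromosome 7, lay 17.9 Mb apart, and those of EDEM3 and SLC35F3 lay 49.5 Mb apart.

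**Figure D3:**
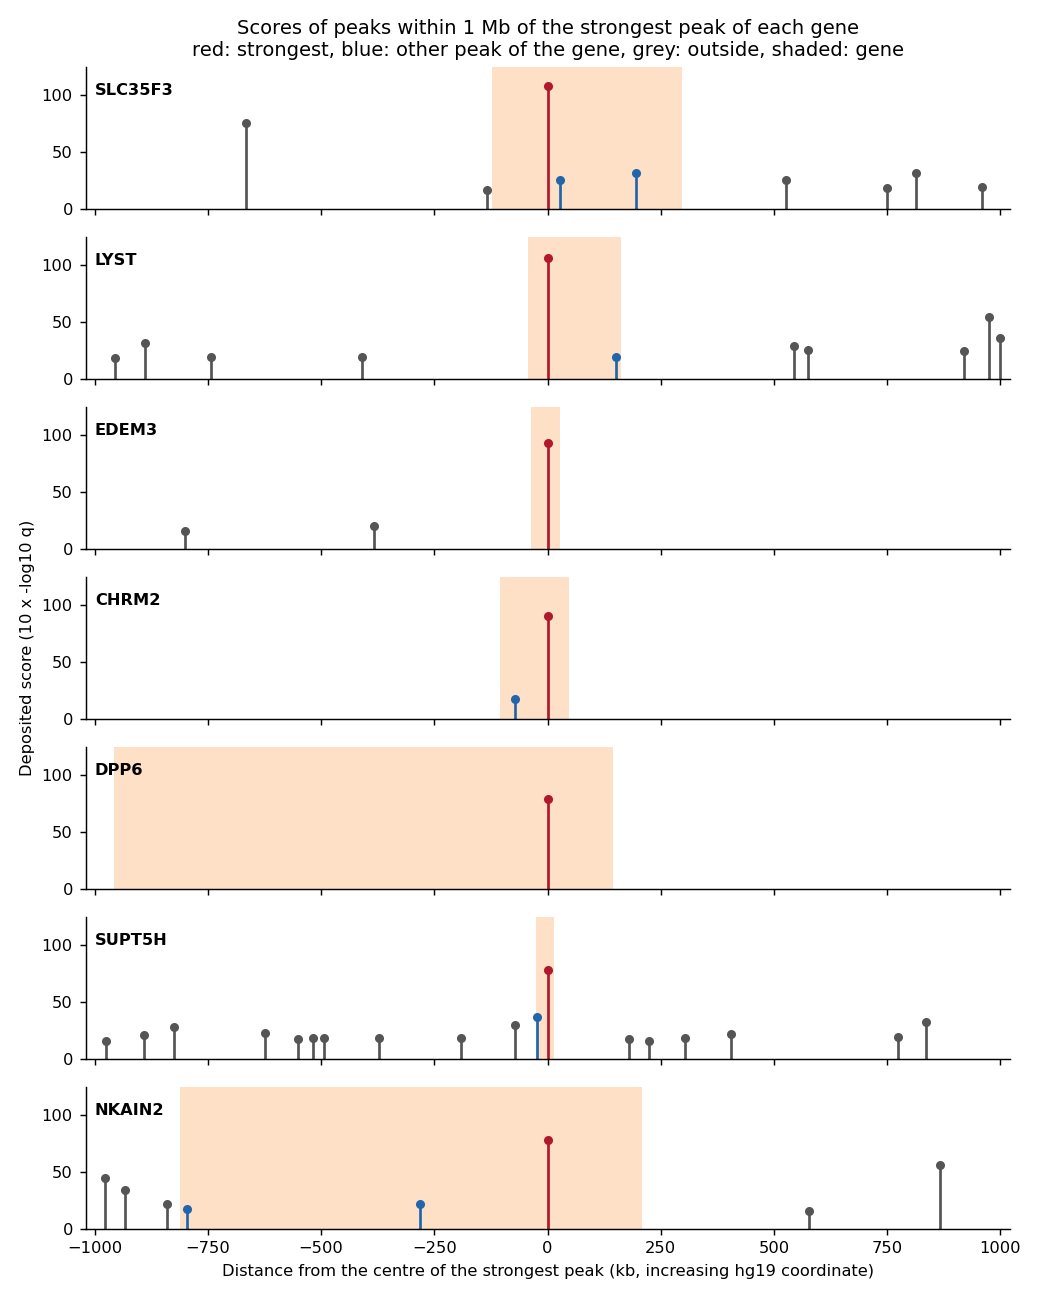
Deposited scores (vertical axis) of all peaks within 1 Mb of the strongest peak of each gene, by distance from its centre in kb (horizontal axis), 1 panel per gene with the gene shaded. The strongest peak (red) is the highest in every panel, DPP6 has no other peak, and SUPT5H has 17 others with scores up to 37.

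Peak names carry a running number given when peaks were called, so gaps between retained peaks count called peaks that were not kept. In the 5 genes with more than 1 peak, 12 of the 77 numbers from the first to the last retained peak were kept, or 15.6%. Of these 12, 10 are the first and last peaks themselves, kept by construction, and between them 2 of 67 were kept. Between the nearest retained peaks outside each gene, summed over all 7, the share was 14 of 387, or 3.62%. Over the whole list at most 5.68% of the numbers were kept.

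In NKAIN2, 35 numbers ran from the first to the last peak and 3 were kept. In SLC35F3 it was 3 of 20 and in LYST 2 of 17. In CHRM2 the 2 peaks had only 1 other number between them, and the 2 peaks of SUPT5H were numbered consecutively. The called peaks that the gaps stand for have no values in the list, so whether a score, the intersection or a blacklisted region removed them is not known.

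Score and fold did not order the genes alike. DPP6 had a higher fold than EDEM3 (6.29 against 5.75) and a lower score (79 against 93). To compare them, the coverage expected at each peak and the ANRIL coverage were estimated from fold and p with the formulas MACS2 usually applies. No source states that these were used, and they hold at 1 position, so the estimates are approximate.

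The expected coverage was highest at the strongest peak of EDEM3, 3.60, followed by SUPT5H at 3.22, LYST at 2.93, NKAIN2 at 2.86, SLC35F3 at 2.79, CHRM2 at 2.38 and DPP6 at 2.23. With fold taken as pileup over expectation, without the added 1, the order was the same and the values were higher, from 5.29 at EDEM3 to 3.96 at DPP6. The 2 genes on chromosome 7 were the lowest. The median over all peaks of chromosome 7 was 2.21, against 2.68 over the list. Over the peaks in the 1 Mb on each side, the median was 3.23 for SUPT5H, 3.22 for LYST and 3.09 for SLC35F3. For NKAIN2, EDEM3 and DPP6 it was 2.77, 2.45 and 2.14, and CHRM2 had no such peak. Genes with more peaks around them thus had higher medians, and whether coverage and crowding are linked was not tested. The estimated ANRIL coverage ran from 25.4 at EDEM3 and 24.8 at LYST to 20.8 at CHRM2 and 19.3 at DPP6. Of the 7, DPP6 had the lowest and EDEM3 the highest value of both estimates. An estimated ANRIL coverage of 19.3 or more was found at 82 peaks, or 2.54% of the list. The estimates come from the fold and p of peaks chosen by score, so this high place follows from the choice.

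**Figure D4:**
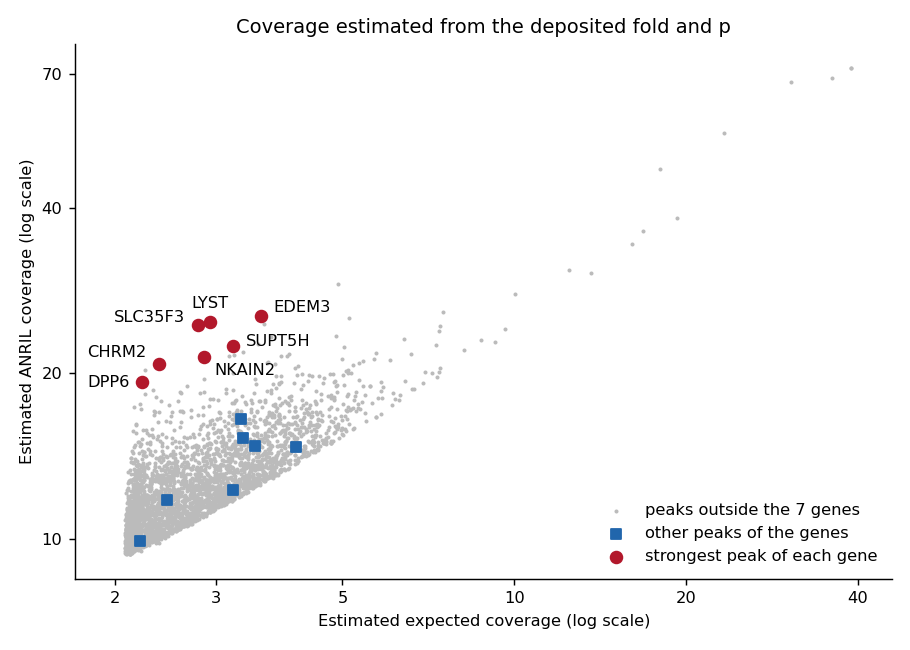
ANRIL coverage (vertical axis, log scale) against expected coverage (horizontal axis, log scale), both estimated from the deposited fold and p, 1 point per peak. The strongest peaks of the genes (red circles) lie at an expected coverage of 2.23 to 3.60 and an ANRIL coverage of 19.3 to 25.4. They lie along the upper edge of the cloud at that expectation, which follows from their choice by score.

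RefSeq lists other genes that overlap 5 of the 7: MIR1537, LDHAP2 and RNU5E-2P with LYST, MIR490, LOC349160 and KRT8P51 with CHRM2, SNORD175 with SUPT5H, and 5 long non-coding RNA genes with DPP6. SLC35F3 overlaps 7, among them the antisense gene SLC35F3-AS1 and MIR4671. None overlaps EDEM3 or NKAIN2. Whether a peak lies over one of these was not analysed here.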

How the data were processed

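The authors deposited 1 list of ANRIL peaks on hg19. Per the submitters' processing notes, Bowtie2, MACS2, bedtools and deepTools were used (versions and parameters: not given in the sources used here). Per the labels, even and odd samples were processed together. The list's title names an intersection of both replicates and a score filter of 15. The deposited values are a score, a fold (a ratio), a −log10 p and a −log10 q per peak; the score equals 10 times −log10 q rounded down in all 3227 rows. Column identities were read from the values and from MACS2's column order. The highest position on chromosome Y, 59017127, lies beyond the last gene of the GRCh38 table, which ends at 57147965. A last gene does not mark the end of a chromosome, so the build rests on the submitters' notes, which name hg19.

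The 7 genes, their intervals and all lists were chosen with earlier results of these data known. All 14 peaks of the genes are named; the other named peaks are the edge of the 10 highest scores and the neighbours. A peak was assigned by its midpoint. Intervals are 95% exact Poisson or binomial ones and cover counting error only; depth per peak is unknown. Names matched RefSeq (GRCh38.p14) for 7 of 7 symbols and strand for 6. No coordinate of that build was used to place peaks in genes. Its coordinates served for the RefSeq gene lengths, the overlapping genes, the chromosome Y check and the promoter windows of the misreading check. Expected coverage solves fold = (pileup + 1)/(expectation + 1) with p as the Poisson upper tail. Assignment and this estimate were tested on simulated data. The simulated fold and p were made with the same formula. That test therefore covers the solving step only, and not whether the deposited values follow the formula. Alternatives tried were other overlap rules, stricter scores, merging, wider genes, other flanks, genes left out and another fold formula. Software was scipy 1.17.1, matplotlib 3.10.9, pandas 2.3.3 and numpy 2.4.6 under Python 3.11.15.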

Additional observations from a re-analysis of the deposited data

How the results depend on the processing

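Of 38 alternative values, 33 stayed within their limits: 1.5 times for the count of peaks, and the counting interval or the order-statistic interval of the median for the rest. For the median score and median fold of the other peaks of the genes, that interval was their full range. Leaving genes out could not take these medians outside it, so their staying within limits was fixed in advance. The 14 peaks stayed 14 with any overlap, with whole peaks only, with genes widened by 10 kb and with close peaks merged, and fell to 9 with a score of 30 or more. The density of 4.66 peaks per Mb was 2.33 without the strongest peak of each gene, and ran from 4.05 without SUPT5H to 6.83 without DPP6. The density around the genes was 2.99, and 1.497 for scores at or above the median. There the density in the genes was 3.66, which includes the strongest peaks that picked the genes. The retained share of peak numbers, 15.6%, was 3.62% with the nearest outside peaks as bounds. The median expected coverage at the strongest peaks was 2.86, and 4.58 with fold as pileup over expectation. The lower values follow from fewer peaks counted or wider bounds. The higher value for the coverage follows from the formula. No paired analysis was possible because single samples have no values in an intersected list. No replicate could be left out for the same reason.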

Other observations

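The hg19 numbers of these peaks can be misread as GRCh38. Read that way, 21 of the 3227 intervals would fall on a RefSeq promoter window of GRCh38, and the strongest LYST peak would be one of them, on a promoter window of LYST itself. In hg19, the build the notes name, that peak lies 163 kb from the start of the LYST interval.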
